A study of Mus musculus with 3 samples.

Results

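The genes described here are the insulin-like growth factor Igf1, its receptor gene Igf1r, and the binding protein genes Igfbp2, Igfbp3, Igfbp4, Igfbp5, Igfbp6 and Igfbp7. They were followed in the cortex of mouse embryos that lacked exon 6 of Snf2l (Snf2l-Ex6DEL), set against wild type. Members were the probes whose symbol in the platform annotation is one of these names. This gave 13 of 38880 probes, for 8 of 19911 genes with a symbol. Cortices were taken at E15.5 (embryonic day) from 129Sv mice, the background of both genotypes. Snf2l, now Smarca1, encodes an ATPase of the ISWI chromatin remodellers. Each of 3 two-colour arrays set mutant RNA against wild-type RNA. Replicates 1 and 2 shared 1 mutant and 1 wild-type RNA, hybridised in opposite dye orientations (pair 1), and replicate 3 used another such pair (pair 2), so that n = 2 biological pairs. The labels give no sex or litter, nor whether embryos were pooled.

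Insulin-like growth factors are small secreted proteins that promote growth and survival through a receptor tyrosine kinase, the product of Igf1r. In tissue and blood most of the ligand is held by binding proteins, which lengthen its life, keep it from the receptor, or release it when proteases cut them. In the embryonic brain Igf2 and several binding proteins are made by the meninges, blood vessels and choroid plexus, and neural progenitors carry the receptor.

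The values are log2 ratios, read here as mutant over wild type, so that -1 stands for a 2-fold lower signal in the mutant. This direction is likely but not stated by the depositors. If the ratios ran the other way, each sign given here would turn. A ratio carries no level, so the cortical identity of the tissue could not be checked from marker levels, and fewer cells of a type cannot be told apart from less RNA per cell. Between 4547 and 8518 probes per array sat at 1 shared value at or next to 0 (0.009, 0 and 0.001 on replicates 1 to 3), and a spot at that value was taken as no measurement. The arrays of pair 1 correlated at r = 0.245 across 28334 features (genes, and probes without a symbol), which are not independent replicates, and pair 1 and pair 2 at r = -0.066. The targeted gene, Smarca1, read -0.02, 0.36 and 3.11 on replicates 1 to 3. Where its single probe lies relative to exon 6 is not given, so these values are no check of the genotypes.

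Signals of all 6 binding protein genes were lower in the mutant than in the wild type on both arrays of pair 1, between 2.53-fold for Igfbp2 and 9.07-fold for Igfbp6 by the mean of the 2 arrays. In pair 2 only Igfbp7, of these 6, was again more than 2-fold lower, while Igfbp4 and Igfbp5 were above 0 and Igfbp6 was not measured. All 9 probes of the binding proteins were below 0 on both arrays of pair 1. In pair 2, 4 of them were below 0, 4 above and 1 was not measured. These 9 probes belong to 6 genes, and the shares over all probes were not counted. Including Igf1 and Igf1r, all 8 genes were below 0 on both arrays of pair 1, against 22.9% of all features. Here and below, the base of that share includes features not measured in pair 1, which could not be called. The share among measured genes alone was not counted for this rule. No member passed limma's moderated test over the 2 pairs at an adjusted p of 0.05 (0 of 8), and neither did any other feature (0% of 28334). At an unadjusted p of 0.05, 1 of 8 members passed, against 2.52% of all features.

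**Figure D1:**
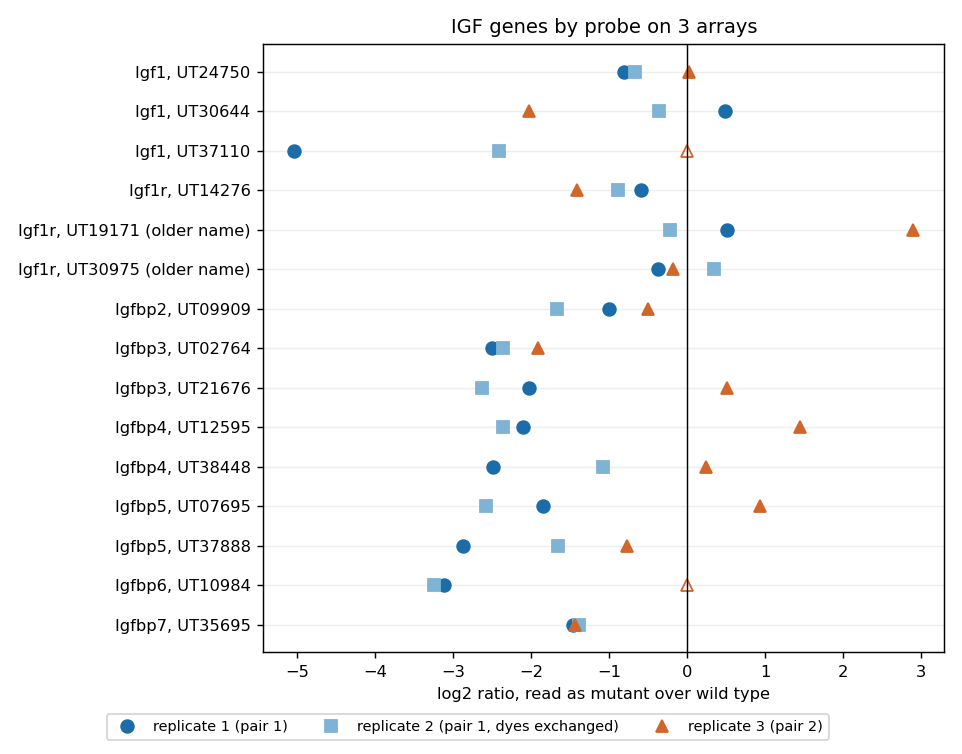
Log2 ratios (horizontal axis) of each probe of the 8 genes (rows) on replicates 1, 2 and 3; open symbols mark values at the array's most frequent value, which are no measurement. Circles and squares of pair 1 lie left of 0 for all 9 binding protein probes, whereas the triangles of pair 2 are spread over both sides, and the 3 symbols of Igfbp7 coincide near -1.4.

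Igf1, the ligand, had 3 probes that differed from one another. Probe UT24750 read -0.81 and -0.67 on replicates 1 and 2 and 0.02 on replicate 3. Probe UT30644 read 0.48, -0.36 and -2.03. Probe UT37110 read -5.03 and -2.42 in pair 1 and was not measured in pair 2. The sign was thus lower on both arrays of pair 1 for 2 of the 3 probes, and no probe was clearly lower in both pairs. Averaged, Igf1 read -1.79, -1.15 and -0.67, and its mean over the pairs was -1.07 ± 0.35 (limma's moderated SE, n = 2 pairs, adjusted p = 0.852). The -0.67 counts the unmeasured UT37110 at 0.001. Without spots at the most frequent value the mean was -1.24 (limma's adjusted p = 0.9995). The size of that average in pair 1 rests mostly on UT37110, and its value in pair 2 on UT30644.

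Igf1r, the receptor tyrosine kinase that Igf1 and Igf2 share, had 1 probe under its own symbol (UT14276). It read -0.60, -0.89 and -1.41, so that it was below 0 on all 3 arrays, by 1.67-fold in pair 1 and 2.66-fold in pair 2. Its mean was -1.08 ± 0.32 (moderated SE, limma's adjusted p = 0.852). Another 2 probes are listed under older names that RefSeq gives as synonyms of Igf1r. Probe UT19171 read 0.51, -0.23 and 2.90 and probe UT30975 read -0.37, 0.34 and -0.19. Neither followed UT14276, and with all 3 probes averaged the mean turned to 0.11 (adjusted p = 0.947). Whether these 2 probes read the Igf1r transcript could not be checked, since no probe sequences or positions were at hand. No direction for Igf1r is therefore given from these arrays, beyond the reading of UT14276.

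Igfbp2, a binding protein abundant in fetal tissues and the fetal brain, read -0.999, -1.67 and -0.51 on its 1 probe. All arrays were on the lower side, and pair 2 was nearest to 0. The mean was -0.92 ± 0.36 (moderated SE, limma's adjusted p = 0.852). Its value on replicate 1 lay just short of 2-fold.

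Igfbp3, the main IGF carrier of adult serum, was read by 2 probes that lay close together in pair 1 and far apart in pair 2. Probe UT02764 read -2.51, -2.36 and -1.92. Probe UT21676 read -2.03, -2.63 and 0.50. The probes differed by 0.475 on replicate 1, 0.276 on replicate 2 and 2.42 on replicate 3, and by 0.10 in their pair 1 means. The gene's mean was -1.54 ± 0.62 (moderated SE, limma's adjusted p = 0.852).

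Igfbp4, which mostly restrains IGF action until the protease encoded by Pappa cuts it, was lower in pair 1 and not in pair 2. Probe UT12595 read -2.10, -2.37 and 1.44. Probe UT38448 read -2.50, -1.08 and 0.24. Both probes had opposite signs in the 2 pairs, and UT12595 was the 1 probe of the 13 that was more than 2-fold higher on replicate 3. The mean was -0.59 ± 1.01 (moderated SE, limma's adjusted p = 0.897), an SE larger than the mean itself.

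Igfbp5, a binding protein that attaches to the extracellular matrix, also had 2 probes. Probe UT07695 read -1.85, -2.58 and 0.94. Probe UT37888 read -2.88, -1.65 and -0.77. The probes differed by 1.03 on replicate 1 and by 0.92 on replicate 2, in opposite directions, so that their pair 1 means differed by only 0.05. On replicate 3 they differed by 1.71 and were on opposite sides of 0. The mean was -1.08 ± 0.83 (moderated SE, limma's adjusted p = 0.852).

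Igfbp6, which prefers Igf2 over Igf1, had the lowest ratio of the members in pair 1, at -3.12 and -3.25. Of all features, 1.18% were lower in that pair. On replicate 3 it read 0.001, the array's most frequent value, which is no measurement. Its fitted mean of -1.59 ± 1.12 (moderated SE, limma's adjusted p = 0.852) counts that value as 0, and pair 1 is the only pair that measured it.

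Igfbp7, a secreted relative with low affinity for IGFs that is deposited around blood vessels, was the member whose pairs lay closest together. It read -1.46, -1.39 and -1.44, which is 2.69-fold lower in pair 1 and 2.71-fold lower in pair 2. The values differed by 0.075 between the dye-swapped arrays and by 0.0115 between the pairs. Its mean was -1.43 ± 0.21 (moderated SE, n = 2 pairs), with an unadjusted p of 0.0196 and an adjusted p of 0.852 in limma. It was lower on 3 of 3 arrays but did not pass the test across all features, and it has 1 probe, so no second probe checks it. In pair 2 it was not rare for a feature to be so low: 8.78% of features were lower than Igfbp7 there, and 7.52% in pair 1.

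**Figure D2:**
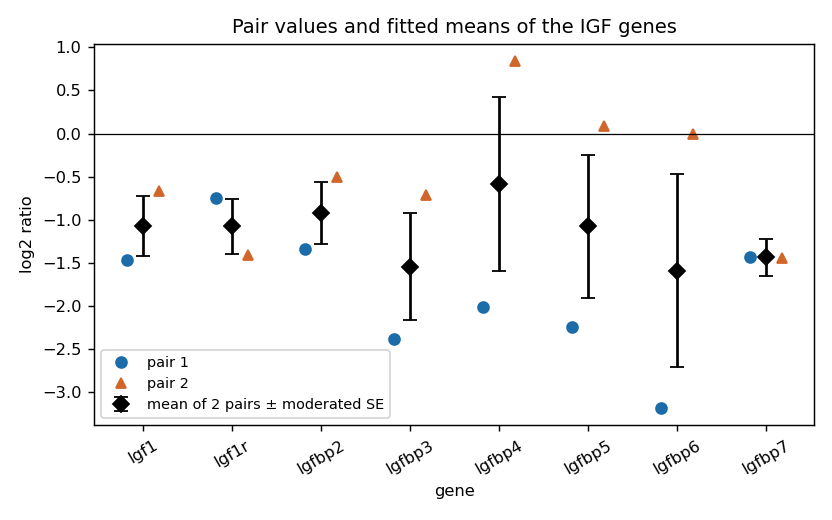
Log2 ratio (vertical axis) of each gene (horizontal axis) in pair 1 (circle, mean of replicates 1 and 2), in pair 2 (triangle, replicate 3), and the mean of the 2 pairs with limma's moderated SE (diamond and bars). The pairs coincide for Igfbp7 at about -1.4 and lie farthest apart for Igfbp6, whose triangle at 0.001 is no measurement, and for Igfbp4.

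By the pair 1 mean the order ran from Igfbp6 at -3.18 through Igfbp3 at -2.38, Igfbp5 at -2.24 and Igfbp4 at -2.01 to Igf1 at -1.47, Igfbp7 at -1.43, Igfbp2 at -1.34 and Igf1r at -0.74. Single probes of these genes differed between the dye-swapped arrays by 0.075 to 2.62, with a median of 0.60 over 13 probes against 0.67 over all probes. By gene, the dye-swapped arrays differed by at most 0.67 over the 8 members. The dye swap shows technical spread only, and the order rests on 1 biological pair, so the order of neighbours is not resolved. The pairs differed by a median of 1.25 over the 8 genes and 2.00 over the 6 binding proteins, against 0.76 over all features, with the unmeasured Igfbp6 of pair 2 entered as 0.001. Without Igfbp6 these medians were 0.83 over 7 genes and 1.67 over 5 binding proteins. With 1 array for pair 2 the difference between the pairs was not tested.

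At least 2-fold lower on both arrays of pair 1 were 6 of the 8 genes (Igf1 and Igfbp3 to Igfbp7), against 5.45% of all features and 7.37% of the 15009 genes measured on all arrays. None was 2-fold higher there, against 2.38% of features. On replicate 3, Igf1r and Igfbp7 (2 of 8) were at least 2-fold lower, against 13.9% of features, and 0 of 8 were 2-fold higher, against 12%. Igfbp6 was not measured on that array and could not be called, and the Igf1r call rests on UT14276 alone. At least 1.5-fold lower on all 3 arrays were 4 of 8, namely Igf1, Igf1r, Igfbp3 and Igfbp7, against 1.74% of features and 2.53% of genes measured on all arrays. At 2-fold this left 1, Igfbp7, and the share over all features was not counted for that rule. Of the 4 at 1.5-fold, Igf1 had no single probe that met the rule, Igfbp3 had 1 of its 2 probes doing so, and for Igf1r only the probe under its own symbol did.

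The 250 bases before the RefSeq start (build GRCm38.p6, used for these sequences only) are printed for 4 of the 8 members. Igfbp3, Igfbp5 and Igfbp6 had the lowest pair 1 means, and Igfbp7 was lower in both pairs. The windows are chr11:7213924-7214173 (- strand), chr1:72874866-72875115 (- strand), chr15:102143936-102144185 (+ strand) and chr5:77408046-77408295 (- strand), each given 5′ to 3′ on the gene's strand. Capitals mark the TATA box letters TATAAA and the GC box letters GGGCGG on either strand.
Igfbp3: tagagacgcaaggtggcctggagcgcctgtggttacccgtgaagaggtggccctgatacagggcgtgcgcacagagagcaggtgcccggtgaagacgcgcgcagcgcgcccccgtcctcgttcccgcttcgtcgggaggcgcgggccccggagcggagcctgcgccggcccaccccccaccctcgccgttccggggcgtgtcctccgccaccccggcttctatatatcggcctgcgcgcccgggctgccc
Igfbp5: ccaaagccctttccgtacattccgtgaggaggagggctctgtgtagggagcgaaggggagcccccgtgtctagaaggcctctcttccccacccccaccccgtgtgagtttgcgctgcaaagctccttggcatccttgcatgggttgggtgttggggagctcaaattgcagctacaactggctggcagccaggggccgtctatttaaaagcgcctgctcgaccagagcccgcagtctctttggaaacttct
Igfbp6: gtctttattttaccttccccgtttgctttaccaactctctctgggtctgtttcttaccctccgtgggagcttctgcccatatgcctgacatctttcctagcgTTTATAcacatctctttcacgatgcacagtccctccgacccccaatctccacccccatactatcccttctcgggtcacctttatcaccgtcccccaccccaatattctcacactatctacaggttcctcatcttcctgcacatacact
Igfbp7: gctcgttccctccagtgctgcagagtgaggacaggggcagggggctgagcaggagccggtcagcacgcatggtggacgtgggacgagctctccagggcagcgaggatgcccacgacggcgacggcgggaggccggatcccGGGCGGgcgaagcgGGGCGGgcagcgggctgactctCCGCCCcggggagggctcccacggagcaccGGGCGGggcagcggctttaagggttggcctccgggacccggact

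The 4 windows did not share these letters. Igfbp7 held 4 GC boxes and no TATA box, and its window had 74% G or C. Igfbp6 held 1 TATA box, on the opposite strand and 148 bases before the start, and no GC box, with 49.6% G or C. Igfbp3 and Igfbp5 held neither set of letters, at 73.2% and 58.8% G or C. Only the exact letters were searched, so variants of these boxes were not counted. Of the members not printed, Igfbp4 held 1 TATA box, 28 bases before the start, and no GC box. Igf1r held 2 GC boxes, Igfbp2 held 3 in 1 window and 0 in another, and Igf1 held neither box. Over all 32851 windows the TATA box letters occurred in 12.4% and the GC box letters in 32.7%, and the median G or C share was 52.4%. The E box letters CANNTG, searched on both strands and found in 66.2% of windows, occurred once each in Igfbp3, Igfbp5 and Igfbp6 and not in Igfbp7. These matches describe the letters of the windows only.

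The members also include neighbours on the chromosome. In the order of RefSeq protein-coding genes, Igfbp2 and Igfbp5 stand next to each other on chromosome 1, and Igfbp3 stands next to Igfbp1 on chromosome 11. Igfbp2 and Igfbp5 were both lower in pair 1, as all 8 members were, and read -0.51 and 0.085 on replicate 3. Igfbp1, a binding protein made chiefly by the liver, read 1.07, -0.08 and 0.62 and so did not follow Igfbp3.

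Of 58 other genes of the IGF pathway, 53 were on the array, and 0 of 53 passed limma's adjusted p of 0.05 or an unadjusted p of 0.05, the lowest unadjusted p being 0.0836. Their medians were -0.05, 0 and 0.15 on replicates 1 to 3, near those of all features (0.009, 0 and 0.001), while the members' medians were -2.03, -1.70 and -0.59 (-0.67 on replicate 3 without Igfbp6). In pair 1, 18 of 53 were below 0 on both arrays, against 22.9% of all features. At least 2-fold lower on both were 6 of 53 (Igf2, Igf2r, Htra1, Htra3, Esm1 and Eif4ebp1), against 5.45% of all features. Another 2 of 53, Igfbpl1 and Rheb, were at least 2-fold higher on both, against 2.38% of all features.

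Among the other ligands and receptors, 4 of 5 were below 0 on both arrays of pair 1, against 22.9% of all features. Igf2, the main fetal ligand, read -2.41, -3.46 and 0.002, the last being next to the array's most frequent value. Igf2r, which clears Igf2 from the cell surface, read -2.37, -1.57 and 1.61, and the sign differed between the pairs. Insr, the insulin receptor gene, read -0.06, -0.84 and 0.39 as the mean of 2 probes.

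The carriers and proteases were mixed. Esm1, a proteoglycan of endothelial cells with an IGFBP-like domain, read -3.08, -3.36 and 1.68. Htra1 and Htra3, secreted proteases with such a domain, read -1.92, -2.49 and 0.75, and -1.86, -2.03 and 0.14. All 3 genes were lower in pair 1 and above 0 in pair 2, as Igfbp4 was. Pappa2, a protease that cuts Igfbp3 and Igfbp5, read -0.72, -1.46 and -0.23. Igfbpl1, an IGFBP-like secreted protein, read 2.17, 2.12 and 0.89, and was 1 of 53 pathway genes at least 1.5-fold higher on all 3 arrays, against 1.12% of features. Its mean was 1.52 ± 0.48 (moderated SE, limma's adjusted p = 0.852), so the IGFBP-like name did not go with 1 direction in pair 1.

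Genes that act inside the cell had values of both signs. The adaptor genes had medians of -0.24, -0.07 and -0.16 over 8 genes, with Irs4 at -0.19, -0.40 and -0.63, Grb14 at 0.19, 0.82 and 0.25, and Sos1 at 0.26, 0.15 and 0.47. The PI3K and AKT genes had medians of 0.07, 0.57 and 0.27 over 9 genes. In that group the regulatory subunit gene Pik3r3 read 0.75, 0.58 and 0.60, and the catalytic subunit genes Pik3cb and Pik3ca read 0.49, 0.57 and 0.86, and 1.81, 0.71 and 0.23. The 12 genes of the mTOR branch had medians of 0.10, 0.45 and 0.07. Of these, 7 were above 0 on both arrays of pair 1, for which the share over all features was not counted. Eif4ebp2, a repressor of translation, read 0.84, 0.56 and 0.31, Rps6kb2, a ribosomal S6 kinase, 0.59, 1.61 and 0.28, and Mtor 0.13, 0.47 and 0.02. Foxo6 and Foxo3, forkhead transcription factors under the control of insulin signalling, read 0.23, 0.67 and 0.55, and -0.03, -0.09 and -0.18. Among the Igf2 mRNA-binding proteins, Igf2bp2 read -0.13, -0.83 and -0.44.

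**Figure D3:**
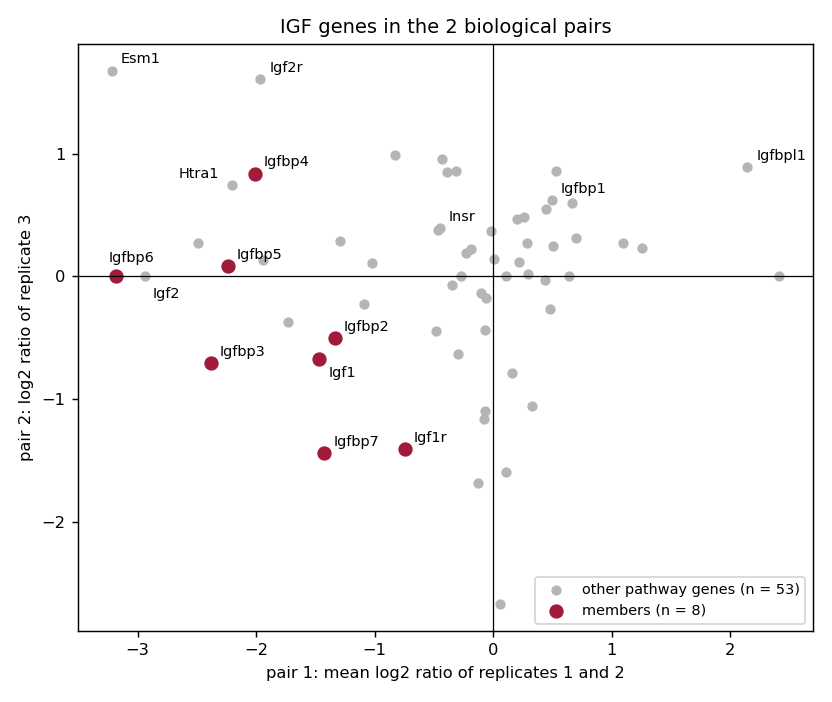
Mean log2 ratio of pair 1 (horizontal axis) against the log2 ratio of pair 2 (vertical axis) for the 8 members (red) and 53 other pathway genes (grey). All 8 members lie left of 0, Igfbp7 near -1.4 on both axes and Igf1r, by the probe under its own symbol, at -0.74 and -1.41 (Igfbp6 was not measured in pair 2), while most pathway genes gather near 0 and Rheb (not measured in pair 2) and Igfbpl1 stand on the far right.

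Of the marker lists for cell types other than cortical neurons and progenitors, all 8 had medians below 0 on both arrays of pair 1, and no gene on them passed limma's adjusted p of 0.05. None of the members is on these lists. Of 14 genes of meninges and fibroblasts, 13 were below 0 on both arrays of pair 1, against 22.9% of all features. Their medians were -3.23, -3.15 and 0.52 on replicates 1 to 3. Lum, a matrix proteoglycan, read -4.88, -5.02 and 3.89, and Ptgds, of the leptomeninges, -5.50, -5.35 and -2.41. The medians of the skeletal muscle list were -5.78, -5.81 and 0.22 (11 of 13 genes below 0 in pair 1), and those of the cartilage and bone list -3.87, -2.56 and 0.35 (9 of 11). Myl1 and Myog of muscle read -9.72, -9.41 and 0.66, and -6.86, -8.63 and 1.59. Endothelial and pericyte genes were less far from 0, at -0.89, -0.94 and 0.12, with 11 of 14 below 0. Their endothelial members Tek and Cdh5 read -2.69, -1.69 and 1.83, and -2.05, -2.19 and 0.26.

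The remaining lists of other cell types had medians on the same sides, and their counts below 0 again stand beside 22.9% of all features. Choroid plexus genes were at -0.55, -1.38 and 0.34 (5 of 7 below 0 on both arrays of pair 1), skin genes at -1.19, -0.79 and 1.71 (4 of 8), microglial and leukocyte genes at -1.24, -0.43 and 0.66 (5 of 8), and red cell genes at -1.78, -3.19 and 1.16 (5 of 6). Krt15 and Krtdap of skin read -2.40, -5.22 and 6.62, and -2.77, -3.15 and 7.20. On replicate 3, Ogn of the meningeal list, Kl of the choroid plexus, Myod1 and Myf6 of muscle, Comp, Runx2 and Ibsp of cartilage and bone, and Dsg3 of skin were at the array's most frequent value. For cortical projection neurons the medians were 2.04, 2.01 and 0.13, and 9 of 12 genes were above 0 in pair 1 while 0 were below. At least 2-fold higher on both arrays were 8 of the 12, against 2.38% of all features. For apical progenitors the medians were 0.49, 0.65 and -0.44, and the list was split. Of its 11 genes, 5 were above 0 on both arrays of pair 1 and 3 were below. The share of all features above 0 on both arrays was not counted, so the counts above 0 of both lists have no background. The part of these cell types in the binding protein ratios was not tested. The medians of the 6 binding proteins, -2.28, -1.92 and -0.25, lay between those of the endothelial and the meningeal list in pair 1 and below both in pair 2. The pair 2 median counts the unmeasured Igfbp6 at 0.001, and over the 5 binding proteins measured on all arrays the medians were -2.27, -1.72 and -0.51.

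**Figure D4:**
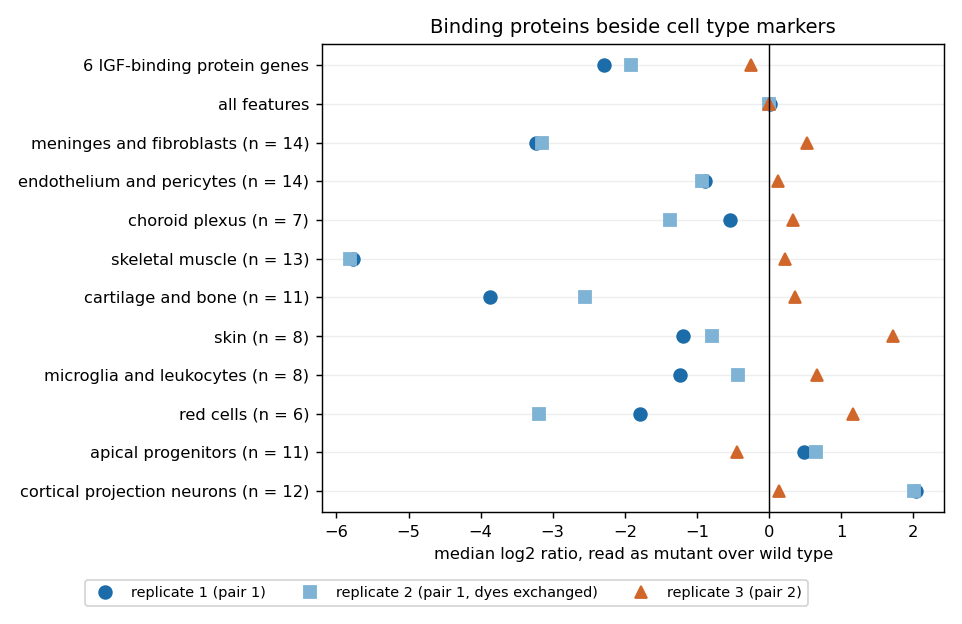
Median log2 ratio (horizontal axis) on replicates 1, 2 and 3 of the 6 binding protein genes, of all features and of 10 lists of cell type markers (rows, n genes each). In pair 1 the binding proteins sit left of 0 with the 8 lists of other cell types and opposite to projection neurons; in pair 2 their median is at -0.25 with the unmeasured Igfbp6 counted (-0.51 without it) while these 8 lists lie right of 0.

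Genes whose 3 ratios lay nearest to those of a member were sought among 14852 genes, which are the 15009 measured on all arrays less 7 members and 150 whose symbol RefSeq does not hold, by Euclidean distance over the 3 arrays. For Igfbp7 they were Prss12 at a distance of 0.18, 2210418O10Rik and Zcchc24. For Igfbp4 they were Syngr2 at 0.17, Antxr2 and Atp5c1, and for Igfbp5 5430440P10Rik at 0.18, Wfdc2 and Wnk4. Igfbp3 lay nearest to Tbx3 at 0.19, Lrig3 and Ccr6, and Igfbp2 to C1qc at 0.10, 4933433G08Rik and Plcd1. Igf1 lay nearest to Pex2 at 0.20, Lamb2 and Unc93b1, and Igf1r to Fam217b at 0.17, Gfra1 and Pdap1. With 3 arrays such likeness is a description only, and Igfbp6 was left out because pair 2 did not measure it.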

How the data were processed

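Per the labels' protocols, RNA of brain tissue was purified with an RNeasy kit, and cDNA was labelled with a 3DNA kit. Mutant RNA carried Cy5 on replicates 1 and 3 and Cy3 on replicate 2. Each deposited value was read as a log2 ratio centred by the authors, because they lie on both sides of 0 with array medians of 0.009, 0 and 0.001. The numerator, scanner, background correction, normalization and spot filter are not given in the sources used here, and no intensities were used. Members and gene lists were chosen with earlier results of these data known.

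Of 38880 probes, 30457 had 1 symbol, 0 several and 8423 none. Symbols were updated through RefSeq synonyms (12795 were current, 8317 were updated and 364 were kept), except that probes under older names of a member stayed apart. Probes of a symbol were averaged, giving 28334 features. Replicates 1 and 2 were averaged, and both pairs were tested against 0 with limma 3.58.1 in R 4.3.3 (lmFit, eBayes, Benjamini-Hochberg over all features, 2.08 total degrees of freedom). The test was tried on simulated data with known changes and an equal spread for all genes, which does not show how it performs on these arrays. The p-values concern these pairs, whose number limits the precision. Named genes were all members, Igf2, Igf2r, Igfbp1 and Insr, up to 3 genes per pathway group whose sign was the same on each array (those whose weakest array lay farthest from 0 first), the 2 most extreme genes per marker list in pair 1, and the 3 nearest genes per member. Genes that make up a count of 8 or fewer, and markers at the most frequent value, were named after their values were seen. Not every gene of the marker rule is printed. The alternatives were other fold thresholds, robust eBayes, a dye term, arrays taken singly or blocked, each array omitted, probes kept apart, another centre or scale, and no spots at the most frequent value. Plots used matplotlib 3.10.9 under Python 3.11.15. RefSeq coordinates are printed for promoter windows alone, since the build of the array is not given.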

Additional observations from a re-analysis of the deposited data

How the results depend on the processing

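The count of 0 members, 0 pathway genes and 0 features past an adjusted p of 0.05 held under all 11 alternatives that gave a test, with a lowest adjusted p of 0.682 to 0.9995. At an unadjusted p of 0.05 these alternatives called 1 to 5 members, 0 to 3 pathway genes and 578 to 2021 features. For Igfbp7 the unadjusted p ran from 0.00201 to 0.0438 and the mean from -1.45 to -1.40. The 0.00201 and the 5 members come from the fit that counts 3 arrays as independent, although 2 of them share their RNA. On pair 2 alone, Igfbp4 (0.84) and Igfbp5 (0.085) were above 0. Igf1r turned to 0.11 with the probes under its older names, an alternative chosen after seeing the data, as was the block with the correlation of the dye-swapped arrays (0.245). That block replaced a random block, for which duplicateCorrelation gave no estimate with 3 arrays. The count of 4 genes at least 1.5-fold one way on all arrays became 1 at 2-fold and 5 at 1.2-fold, 3 when centred on measured probes, 3 with the older names of Igf1r averaged in, and 4 to 8 with 1 array left out, the 8 being without replicate 3, which leaves the threshold to be met by pair 1 alone. The count of 0 at least 2-fold higher on replicate 3 became 1 probe with each probe as a feature (Igfbp4), and 1 gene at 1.2-fold and 1 at 1.5-fold (Igfbp4). For these alternative fold counts the share over all features was not counted. Leaving out replicate 3 left 1 pair and no test. Without spots at the most frequent value Igfbp6 had no fitted mean. Each ratio already pairs a mutant with a wild-type RNA, so no further block on the replicate number applied.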
